A study of Mus musculus with 9 samples.

Results

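The myosin heavy chain genes of the heart, Myh6, Myh7 and Myh7b, were followed in 9 heart libraries by taking every row that carried 1 of these gene names, which gave 18 of 127558 transcripts and 3 of 41710 genes. Hearts came from male FVB/N mice at an age of 8 months, with 3 libraries from Tg-RKIP mice, 3 from Tg-GRK2 mice and 3 from non-transgenic FVB/N mice (FVB). Tg-RKIP mice carried an RKIP transgene that is expressed in the myocardium from the alpha-MHC promoter, which is the promoter of Myh6 itself. Tg-GRK2 mice carried a GRK2 transgene, whose promoter is not given in the sources used here, and both transgenic groups were compared with the same FVB libraries. The libraries of a group were numbered 1 to 3, no pair of them held identical values, and p-values measure only the spread between these libraries. That spread was narrow. In the 9 pairs of libraries within groups, the median squared difference of a gene was 1.37 to 1.52 times that of sampling noise. How much of the variation between mice it holds was not tested.

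Myosin heavy chains are the motor subunits of the thick filament, and each pairs with light chains to pull on actin. In the adult mouse ventricle the fast alpha-myosin encoded by Myh6 predominates, while the slower beta-myosin encoded by Myh7 is the fetal form, is the myosin of slow skeletal muscle and is widely measured as a sign of cardiac stress. Myh7b encodes a more distant relative that is best known as the host gene of a microRNA, and Myh6 and Myh7 each host a microRNA of their own.

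Total reads on transcripts were between 25458108 and 33447654 per library. The gene of the transgene product, Pebp1 (RKIP), stood at 16000 to 16400 TPM (reads divided by transcript length and scaled to the same total in every library) in Tg-RKIP against 321 to 330 TPM in FVB. Grk2 stood at 24.9 to 30.5 TPM in the libraries labelled Tg-GRK2 and 25.9 to 27.9 TPM in FVB, with a log2 fold change of 0.05 (adjusted p = 0.354, edgeR), so these libraries are named here by their label. Mitochondrial genes took 11.5 to 11.8% of the reads in Tg-RKIP, 22.4 to 22.9% in Tg-GRK2 and 22.9 to 23.2% in FVB. Summed cardiomyocyte markers (10 of 10 measured) were at 51870 to 52910 TPM in Tg-RKIP, 47210 to 48880 TPM in Tg-GRK2 and 50840 to 51260 TPM in FVB. Of these 10 genes, 8 were lower, 1 higher and 1 not past the threshold in Tg-RKIP against FVB by TMM-normalized counts (median log2 fold change -0.36), and 5 were lower and 5 higher on the log2(TPM + 0.1) scale. Over all genes 37.1% were lower and 36.8% higher by TMM-normalized counts, and 14.6% and 66.3% on the log2(TPM + 0.1) scale.

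Myh6 and Myh7 lay next to each other on the minus strand of chromosome 14, in the GRCm39 coordinates of the deposited tables at chr14:55179378-55204384 and chr14:55208141-55232083, with 3756 bases between them. Myh7b lay on the plus strand at chr2:155453132-155476227. The tables listed 7 transcripts of Myh6, 8 of Myh7, of which 3 had no read in any library, and 3 of Myh7b. All 18 had the same length in GENCODE M21 (GRCm38), from which the sequences shown here were read.

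Myh6 and Myh7 are so alike that reads of 50 bases cannot always be told apart. The coding sequences of the main full-length transcripts, 5817 bases in Myh6_4 and 5808 bases in Myh7_3, were identical at 91.8% of the aligned bases, whereas Myh7b_3 shared 73.5% with Myh6_4 and 73.6% with Myh7_3. There were 26 identical runs of at least 50 bases, 2647 bases together, and 1373 of the 5959 windows of 50 bases in Myh6_4 (23.0%) also occurred in Myh7. No window of Myh7b occurred in another gene. The longest identical run spans 245 bases, exons 30 to 31 of Myh6_4 (chr14:54948327-54948725 in GRCm38, minus strand, with an intron between) and exons 32 to 33 of Myh7_3 (chr14:54974947-54975347). It is shown in capitals, with 10 bases on either side, because a read from it fits both genes.
Myh6, exons 30 to 31: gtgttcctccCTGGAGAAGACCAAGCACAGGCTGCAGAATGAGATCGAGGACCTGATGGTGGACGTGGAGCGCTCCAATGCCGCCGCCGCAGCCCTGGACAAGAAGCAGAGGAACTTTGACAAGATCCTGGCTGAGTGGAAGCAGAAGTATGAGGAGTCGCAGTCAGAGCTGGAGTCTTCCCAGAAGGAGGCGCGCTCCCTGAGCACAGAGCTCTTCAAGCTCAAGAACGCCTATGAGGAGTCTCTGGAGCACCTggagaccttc
The most different 100 aligned bases, with 35 differences in capitals, show where a read tells the genes apart. They lie in exons 24 to 25 of Myh6_4 (chr14:54952249-54952585) and exons 26 to 27 of Myh7_3 (chr14:54980324-54982177).
Myh6, exons 24 to 25: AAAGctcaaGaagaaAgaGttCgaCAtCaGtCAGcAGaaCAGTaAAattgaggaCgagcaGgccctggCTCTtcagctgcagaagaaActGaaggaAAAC
Myh7, exons 26 to 27: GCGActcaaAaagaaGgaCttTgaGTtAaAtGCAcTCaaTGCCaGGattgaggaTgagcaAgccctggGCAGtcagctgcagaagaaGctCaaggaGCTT
How reads that fit both genes were divided is not stated in the sources used here.

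The microRNAs hosted by the 3 genes are shown because each lies inside a member gene and their seeds are alike. RefSeq (GRCm38.p6) held all 3, and the mature arms are given with the seed, bases 2 to 8, in capitals.
miR-208a-3p, from Myh6: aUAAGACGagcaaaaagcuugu
miR-208b-3p, from Myh7: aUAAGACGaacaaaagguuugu
miR-499-5p, from Myh7b: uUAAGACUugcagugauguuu
The arms from Myh6 and Myh7 shared 1 seed and differed at 3 of 22 positions, and the seed of miR-499-5p differed from theirs at 1 position.

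Tg-RKIP hearts held less Myh6 and more Myh7 RNA than FVB hearts, and Tg-GRK2 hearts differed from FVB hearts in the other direction and by far less. Myh6 took 1.11% ± 0.0114 of all reads in Tg-RKIP against 2.19% ± 0.0259 in FVB (mean ± SD, n = 3 each), and Myh7 took 0.638% ± 0.00355 against 0.265% ± 0.00747. Myh7b took 0.00367% ± 6.24e-05 and 0.00304% ± 2.37e-05. Fewer cardiomyocytes and less of an RNA per cardiomyocyte cannot be told apart in whole hearts.

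Myh6 RNA was counted with 291206, 374551 and 280387 reads in Tg-RKIP replicates 1 to 3, with 596598, 687144 and 583050 reads in FVB and with 693699, 688246 and 790684 reads in Tg-GRK2. Every Tg-RKIP library was below every other library. The log2 fold change of the counts normalized by the TMM method was -1.35 in Tg-RKIP against FVB (SE 0.0097, 0.392-fold, adjusted p = 1.45e-28). This and all adjusted p-values that follow are from the quasi-likelihood test of edgeR, adjusted over all features tested after Benjamini and Hochberg, here 15504 genes. In the same comparison 73.9% of all genes tested passed the threshold, 37.1% as lower, so that passing it is common here. With counts scaled to library size 62.6% of all genes were higher and 17.1% lower, and on the log2(TPM + 0.1) scale 66.3% and 14.6%. By TMM 16.4% both passed it and changed at least 2-fold.

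The fall of Myh6 was far smaller when TPM were summed over its transcripts. Summed TPM was 6530, 6434 and 6489 in Tg-RKIP and 7297, 7504 and 7321 in FVB, with means of 6484 ± 48.0 and 7374 ± 113 (SD, n = 3 each) and a fold of 0.879. The groups still did not overlap, as for 78.8% of all genes tested, and the exact two-sided permutation test gave p = 0.1, the smallest it can give with 3 libraries against 3. On the log2(TPM + 0.1) scale the change was -0.19 by limma, against -0.98 for counts scaled to library size only and -1.49 for TMM counts of the full-length coding transcripts, Myh6_3 and Myh6_4, alone. The transcripts of Myh6 went in different directions, as given with the transcripts.

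Myh7 RNA was counted with 166538, 213555 and 161587 reads in Tg-RKIP and with 73028, 84077 and 69038 reads in FVB. Summed TPM was 4120, 4018 and 4111 in Tg-RKIP and 1859, 1920 and 1757 in FVB. No library overlapped between the groups on either scale, where 78.8% of all genes tested did not overlap in TPM. The means of 4083 ± 56.7 and 1845 ± 82.4 TPM (SD, n = 3 each) gave a fold of 2.21. The log2 fold change of TMM counts was 0.89 (SE 0.016, 1.85-fold, adjusted p = 6.81e-22), and 36.8% of all genes passed the threshold as higher. By mean TPM, Myh7 ranked 26th of all genes in Tg-RKIP and 47th in FVB, and Myh6 19th and 18th.

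Myh7b was low in every heart, with TPM of 15.8, 15.7 and 15.6 in Tg-RKIP, of 11.8, 12.9 and 12.0 in FVB and of 14.4, 12.1 and 13.8 in Tg-GRK2. The direction of its difference in Tg-RKIP hung on the scaling. TMM counts gave a log2 fold change of -0.10 (SE 0.038, adjusted p = 0.0202), which was lost without Tg-RKIP replicate 3 (adjusted p = 0.0594) or FVB replicate 2 (adjusted p = 0.0533) and with DESeq2 (adjusted p = 0.0827). Counts scaled to library size gave 0.27 and log2(TPM + 0.1) gave 0.35. The median of all genes moved in the same way, from 0.0085 with TMM to 0.384 with library size and 0.428 with TPM, and Myh7b lay below that median on each of these scales. In TPM the Tg-RKIP libraries did not overlap with FVB (1.28-fold, exact two-sided permutation p = 0.1, the smallest possible), as for 78.8% of all genes tested.

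**Figure D1:**
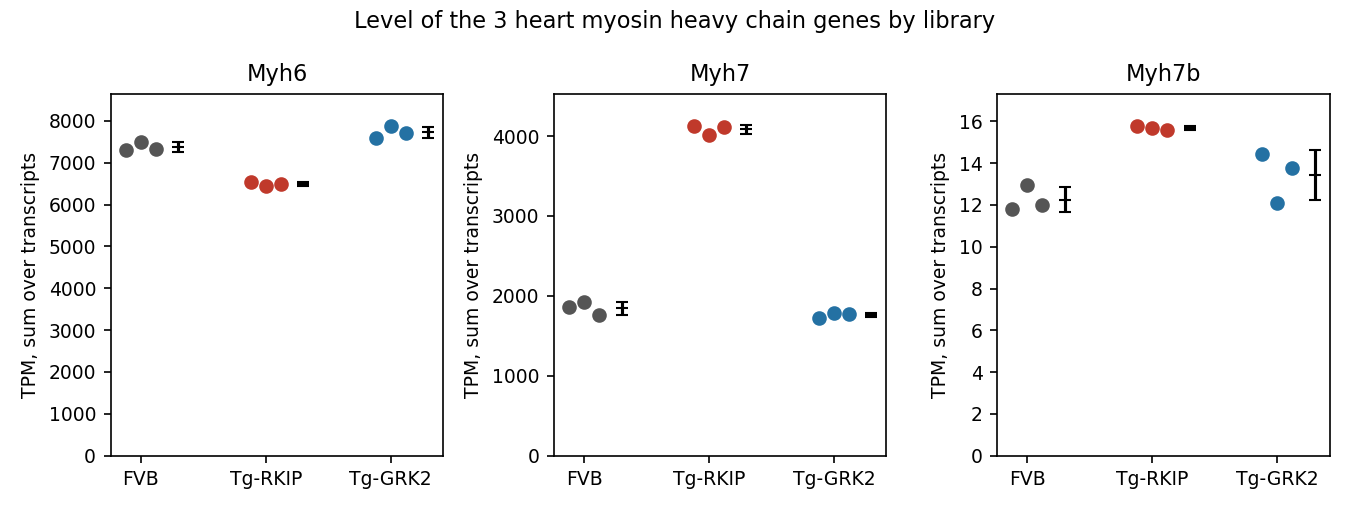
TPM summed over the transcripts of each gene (y axis) for each library (points) in FVB, Tg-RKIP and Tg-GRK2, with the mean and SD of 3 libraries beside them. Myh7 stands at 4018 to 4120 TPM in Tg-RKIP, above all 6 other libraries, which reach at most 1920 TPM.

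The balance of the heart myosins is commonly given as the ratio of Myh7 to Myh6. From summed TPM it was 0.631, 0.624 and 0.633 in Tg-RKIP, 0.255, 0.256 and 0.240 in FVB, and 0.227, 0.226 and 0.230 in Tg-GRK2. The 3 groups did not overlap, with Tg-RKIP highest and Tg-GRK2 lowest. The fold of Tg-RKIP over FVB was 2.52 (log2 difference 1.33, SE 0.0304, exact two-sided permutation p = 0.1, the smallest possible), and that of Tg-GRK2 over FVB was 0.911 (log2 difference -0.13, SE 0.0304, exact p = 0.1). Myh7 made up 38.6% ± 0.176 of the TPM of both genes in Tg-RKIP, 20.0% ± 0.569 in FVB and 18.6% ± 0.111 in Tg-GRK2. From full-length coding transcripts alone these shares were 34.9%, 8.95% and 7.81%. Most of the summed Myh7 TPM came from Myh7_1, a retained-intron fragment of 595 bases. It held 67.1% ± 0.756 of the Myh7 TPM in Tg-RKIP, 71.8% ± 0.665 in FVB and 70.9% ± 0.372 in Tg-GRK2.

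The ratio depended on what was divided, but not in its order. From reads it was 0.573 ± 0.00316 in Tg-RKIP, 0.121 ± 0.00229 in FVB and 0.104 ± 0.000173 in Tg-GRK2, a 4.73-fold difference between Tg-RKIP and FVB. From TPM of the full-length coding transcripts alone it was 0.536 ± 0.00243, 0.0983 ± 0.00136 and 0.0848 ± 0.000268, a 5.45-fold difference. From the most abundant transcript of each gene it was 1.34 ± 0.0875, 0.263 ± 0.0107 and 0.217 ± 0.00413, a 5.11-fold difference, but here the Myh7 transcript was a fragment of 595 bases. In all 4 measures every Tg-RKIP library lay above every FVB library, and every Tg-GRK2 library below.

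**Figure D2:**
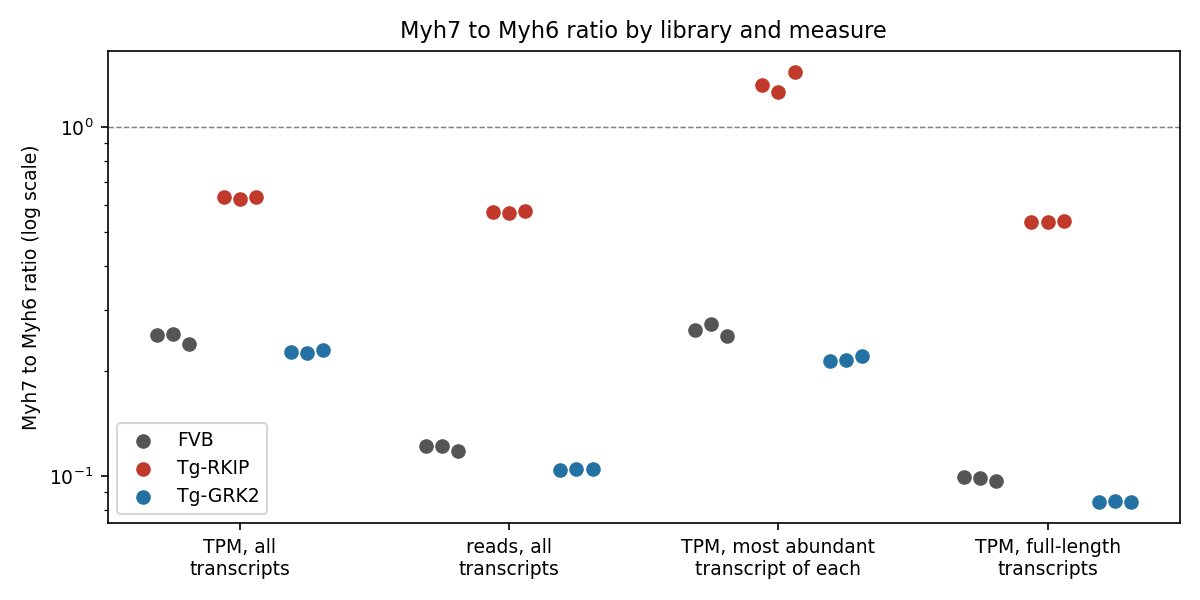
Ratio of Myh7 to Myh6 (y axis, log scale) in each library (points, coloured by group) for 4 ways of summing the transcripts. Tg-RKIP lies highest in all 4, at 0.624 to 0.633 for summed TPM and 0.535 to 0.539 for full-length transcripts, and the dashed line marks a ratio of 1.

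Among the transcripts, Myh6_4 (ENSMUST00000226297, 6008 bases, protein coding) was the main form of Myh6 in FVB, with 92.2% ± 0.391 of the gene's reads and 5043 ± 67.0 TPM. It stood at 2047 ± 91.1 TPM and 71.4% ± 2.2 of the reads in Tg-RKIP, a log2 fold change of -1.68 (SE 0.028, adjusted p = 5.71e-09 over 34991 transcripts). Of the 18 member transcripts, 12 passed the count filter and 10 of these passed the threshold in this comparison, 6 higher and 4 lower, against 34.0% of all transcripts. The 6 include Myh6_6, which passed the count filter only through its Tg-RKIP reads. The 4 include Myh6_2, which passed it only through FVB and Tg-GRK2, where it was higher.

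The other long coding form and a short one of Myh6 went the other way. Myh6_3 (ENSMUST00000081857, 6113 bases), which has a longer 5′ end, was at 450.5 ± 45.2 TPM in Tg-RKIP against 232.6 ± 14.3 TPM in FVB (log2 fold change 0.57, SE 0.11, adjusted p = 0.00389). Myh6_5 (ENSMUST00000228731, 542 bases), which covers the last exons of the gene, was at 3979 ± 68.9 TPM and 2093 ± 79.8 TPM (log2 fold change 0.54, SE 0.032, adjusted p = 5.89e-06). Because it is short, its 12.5% ± 0.367 of the Myh6 reads in Tg-RKIP made up 61.4% ± 0.806 of the Myh6 TPM, against 28.4% ± 0.737 in FVB. In summed TPM its gain offset a large part of the loss of Myh6_4. Of the 493 windows of 50 bases in Myh6_5, 239 (48.5%) also occurred in Myh7, and only 50 (10.1%) occurred in no other transcript.

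A test of transcript usage, which asks whether a transcript changed relative to the rest of its gene (diffSpliceDGE in edgeR), passed for 5 member transcripts in Tg-RKIP against FVB, where 8.95% of all transcripts passed. Among the 5 was Myh6_6, which was read in Tg-RKIP only. Myh6_3 rose by 1.31 relative to its gene (adjusted p = 2.24e-24) and Myh6_5 by 1.29 (adjusted p = 5.18e-24) on the log2 scale, while Myh6_4 fell by 0.26 (adjusted p = 0.00121). Myh6_3 and Myh6_4 share all but 88 of 6064 and 28 of 5959 windows with other transcripts, so that few positions of a read tell them apart.

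**Figure D3:**
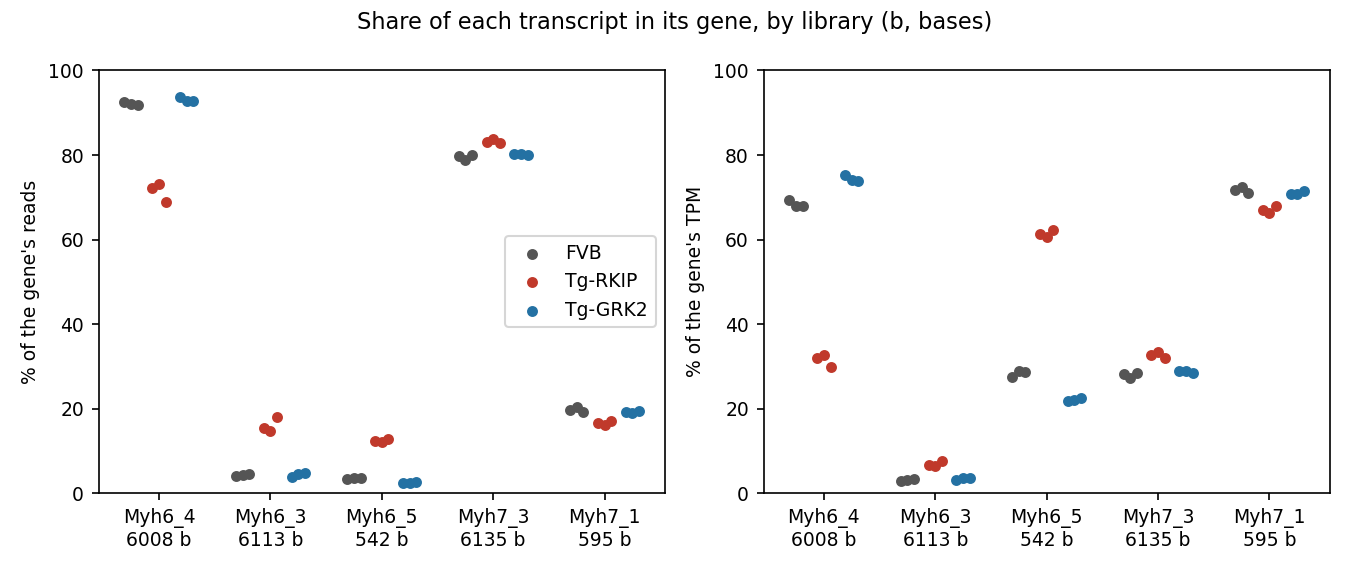
Share of the 5 most abundant member transcripts in the reads (left, y axis in %) and in the TPM (right, y axis in %) of their gene, for each library (points) by group. Myh6_5 holds 12.5% of the Myh6 reads in Tg-RKIP but 61.4% of the Myh6 TPM.

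Myh6_6 (ENSMUST00000124930, 411 bases, protein coding, 4 exons at the 5′ end of Myh6, chr14:55201415-55204031) was counted in Tg-RKIP only, with 41, 48 and 33 reads. The other 6 libraries held 0 reads. Against a floor of 3 reads over the 3 FVB libraries, the 122 reads are at least 40.8-fold higher per read sequenced. Myh6_6 passed the count filter only through its Tg-RKIP reads. The call of Myh6_6 (adjusted p = 0.00474, edgeR) is therefore no separate support for the difference. Its exon 3 begins 23 bases further upstream than that of Myh6_4 (chr14:55202717-55202955 against 55202717-55202932), and 69 of its 362 windows occurred in no other transcript. The alpha-MHC promoter of the RKIP transgene is the promoter at this end of Myh6, and the reads were found in the same 3 libraries as the high Pebp1. Whether any of them came from the transgene was not tested.

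The short forms of Myh6 that keep an intron fell with the gene. Myh6_2 (ENSMUST00000131892, 511 bases) had 2, 5 and 5 reads in Tg-RKIP, 19, 21 and 26 in FVB and 27, 23 and 20 in Tg-GRK2 (log2 fold change -2.76 in Tg-RKIP against FVB, SE 0.47, adjusted p = 0.00263). It passed the count filter only through FVB and Tg-GRK2, where it was higher, so this p-value is no separate support for the difference. Myh6_1 (ENSMUST00000227905, 718 bases) had 27, 31 and 20 reads in Tg-RKIP and 44, 44 and 39 in FVB (log2 fold change -1.04, SE 0.28, adjusted p = 0.0247), a call that was lost on leaving out any of the 6 libraries compared. Myh6_7 did not pass the filter, with at most 9 reads in a library.

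In Myh7 the long coding form Myh7_3 and the retained-intron forms Myh7_1 and Myh7_2 were higher in Tg-RKIP. Myh7_3 (ENSMUST00000102803, 6135 bases), with 83.2% ± 0.442 of the Myh7 reads in Tg-RKIP and 79.5% ± 0.568 in FVB, was at 1337 ± 18.5 TPM against 515.2 ± 12.3 TPM (log2 fold change 0.99, SE 0.018, adjusted p = 9.08e-09). Myh7_1 (ENSMUST00000227401, 595 bases, retained intron) was at 2741 ± 65.6 TPM against 1324 ± 71.0 TPM (log2 fold change 0.67, SE 0.038, adjusted p = 5.13e-06), and 46.9% of its windows also occurred in Myh6. Only 21 of its 546 windows (3.85%) occurred in no other transcript. Myh7_2 (ENSMUST00000149852, 3769 bases, retained intron), whose 3720 windows are shared with Myh6 in only 7.77%, had 209, 234 and 221 reads in Tg-RKIP and 114, 138 and 115 in FVB (log2 fold change 0.54, SE 0.14, adjusted p = 0.0207). Its call was lost without either of Tg-RKIP replicates 1 and 3 or any of the 3 FVB libraries, at adjusted p = 0.05 to 0.0805.

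Myh7_4 (ENSMUST00000168485, 6230 bases) was the only tested Myh7 form that was lower in Tg-RKIP. Myh7_5, Myh7_6 and Myh7_8 held no reads, and Myh7_7 did not pass the filter, with 2 reads over the Tg-RKIP libraries and 6 over FVB. Myh7_4 had 207, 289 and 60 reads in Tg-RKIP and 340, 554 and 417 in FVB (log2 fold change -1.61, SE 0.42, adjusted p = 0.0201), which was lost without FVB replicate 2 (adjusted p = 0.0625) or FVB replicate 3 (adjusted p = 0.0522). It also fell relative to its gene, by 1.76 on the log2 scale (adjusted p = 2.83e-08). Only 137 of its 6181 windows (2.22%) occurred in no other transcript, and it held under 1% of the Myh7 reads in every group.

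Myh7b_3 (ENSMUST00000092995, 6163 bases) held 91.4% ± 0.354 of the Myh7b reads in Tg-RKIP and 91.9% ± 0.886 in FVB, with a log2 fold change of -0.07 (SE 0.044, adjusted p = 0.24). The retained-intron form Myh7b_2 gave 0.14 (SE 0.28, adjusted p = 0.762), and Myh7b_1 had 18 reads in all FVB libraries together and did not pass the filter.

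**Figure D4:**
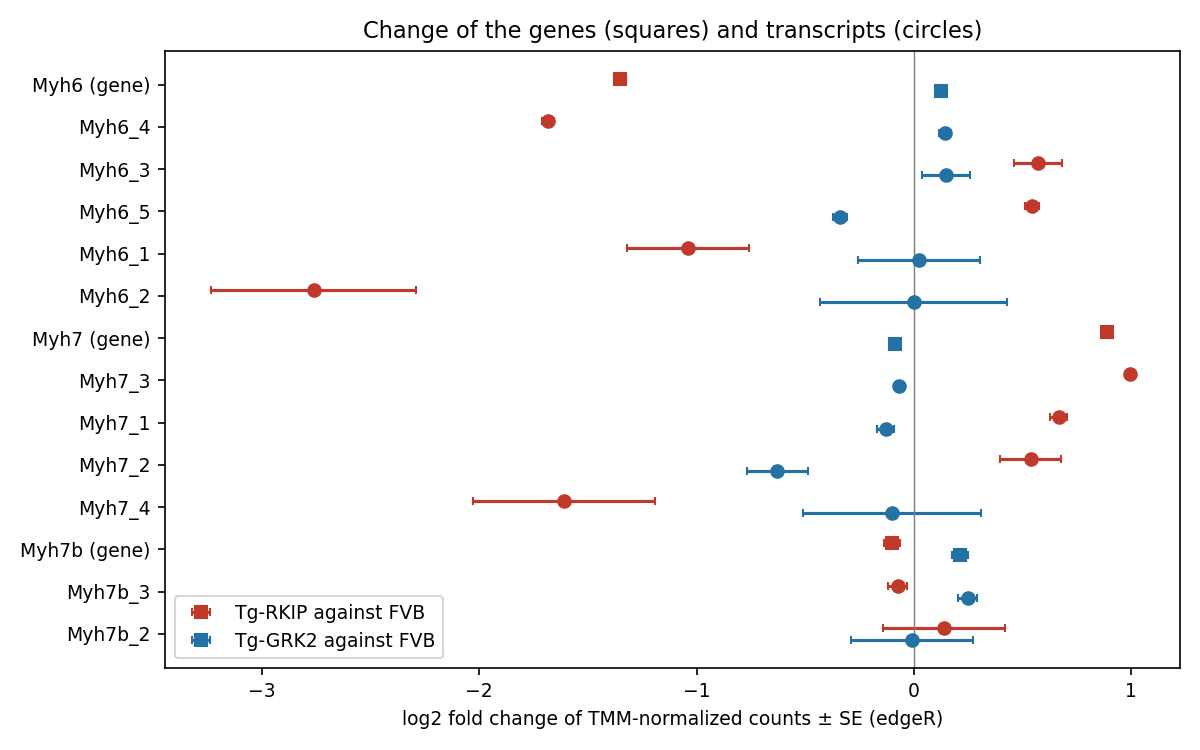
Log2 fold change with its SE (x axis) of each member gene (squares) and of its tested transcripts (circles) in Tg-RKIP (red) and Tg-GRK2 (blue) against FVB, by edgeR on TMM-normalized counts. In Tg-RKIP, Myh6_4 lies at -1.68 and Myh6_5 at 0.54, on either side of 0. Myh6_6 is left out, since a fitted change against 0 reads has no size.

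In Tg-GRK2 against FVB the changes were small. Myh6 gave a log2 fold change of 0.12 (SE 0.0096, 1.09-fold, adjusted p = 2.35e-09), Myh7 of -0.09 (SE 0.016, 0.941-fold, adjusted p = 2.44e-04) and Myh7b of 0.21 (SE 0.037, 1.16-fold, adjusted p = 1.86e-04), where 24.5% of all genes passed the threshold, 12.2% in either direction. None of the 3 passed a test for a change of at least 1.5-fold, and in TPM the Tg-GRK2 and FVB libraries overlapped for Myh7 and Myh7b but not for Myh6 (1.05-fold), where 33.8% of all genes did not overlap. Of the transcripts, Myh6_5 fell by 0.34 on the log2 scale (adjusted p = 0.00146) and by 0.33 relative to its gene (adjusted p = 0.00124), while Myh6_4 rose by 0.14 (adjusted p = 0.0302) and Myh7b_3 by 0.25 (adjusted p = 0.0239). The background was 3.42% for transcripts and 0.768% for transcript usage. The calls of Myh6_4 and Myh7b_3 were lost on leaving out any 1 FVB library, Tg-GRK2 replicate 1 or 2 or Tg-RKIP replicate 1, and that of Myh6_4 also without Tg-GRK2 replicate 3, at adjusted p up to 0.119 for Myh6_4 and 0.0861 for Myh7b_3.

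The transgenic groups were also compared with each other. Myh6 gave a log2 fold change of -1.48 in Tg-RKIP against Tg-GRK2, Myh7 of 0.98 and Myh7b of -0.31 (adjusted p = 8.55e-08 for Myh7b), where 74.5% of all genes passed the threshold, 37.9% as higher and 36.6% as lower. No library of one group overlapped with the other in TPM for any of the 3, as for 78.5% of all genes. Myh7b turned to 0.05 with counts scaled to library size and 0.23 on the log2(TPM + 0.1) scale.

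**Figure D5:**
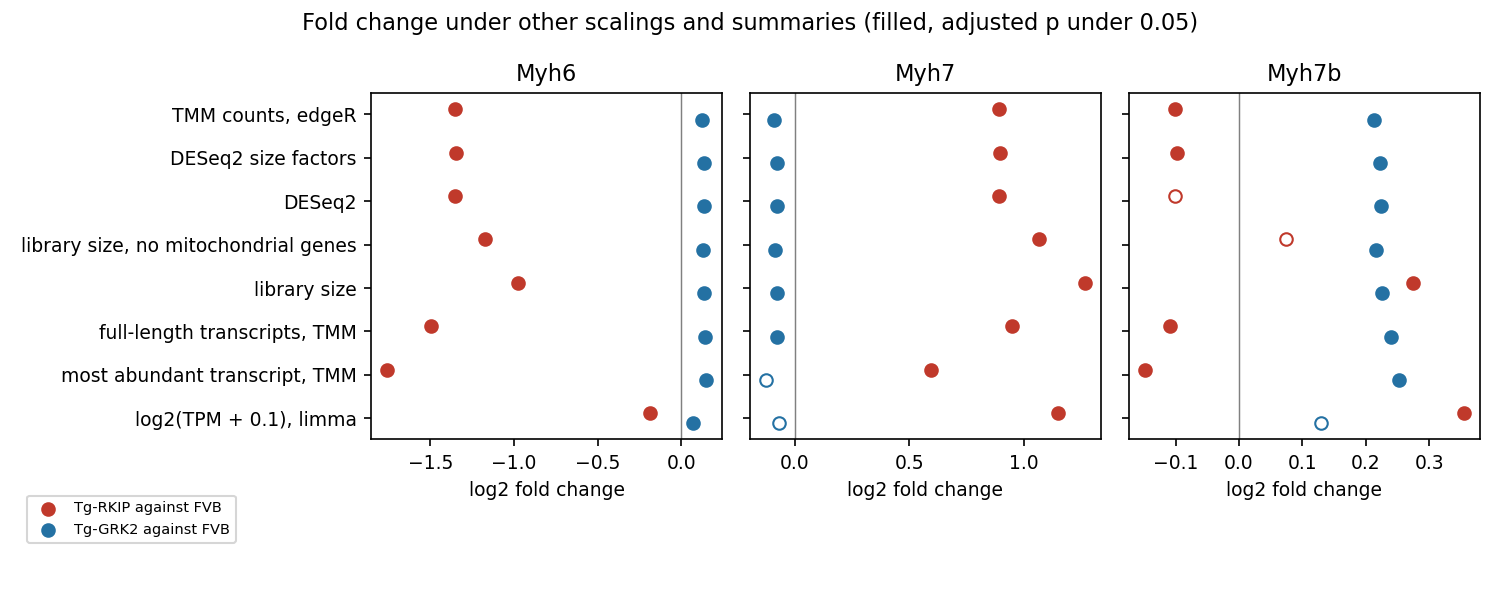
Log2 fold change against FVB (x axis) of each member gene under 8 scalings or summaries of the counts or TPM, in Tg-RKIP (red) and Tg-GRK2 (blue), filled where the adjusted p is under 0.05. Myh6 stays below 0 and Myh7 above 0 in Tg-RKIP under all 8, from -1.76 to -0.19 and from 0.59 to 1.27, while Myh7b lies on both sides of 0.

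The antisense gene of the locus was lower in Tg-RKIP, and the hosted microRNA hairpins held few reads or none. Mhrt, a long noncoding RNA that starts between Myh6 and Myh7 and runs antisense into Myh7, gave a log2 fold change of -0.85 in Tg-RKIP against FVB (SE 0.065, adjusted p = 1.1e-10) and 0.20 in Tg-GRK2 (adjusted p = 0.0148), the latter lost without Tg-GRK2 replicate 3 (adjusted p = 0.0793) or FVB replicate 1 (adjusted p = 0.112). Its long transcript, Mhrt_2, had 459, 600 and 531 reads in Tg-RKIP and 702, 976 and 762 in FVB (log2 fold change -0.94, adjusted p = 1.17e-04), and the short Mhrt_1, which lies between the genes, had 58, 81 and 49 reads against 10, 20 and 17 (log2 fold change 1.65, adjusted p = 0.00679). Reads from Mhrt and Myh7 can be told apart only by strand where they overlap, which holds for 302 of the 779 windows of Mhrt_2 (38.8%) and for none of Mhrt_1, and whether strand was used is not given in the sources used here.

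Mir208b, inside Myh7, had 6, 8 and 1 reads in Tg-RKIP, 17, 18 and 22 in FVB and 26, 17 and 33 in Tg-GRK2, with a log2 fold change of -2.27 in Tg-RKIP against FVB (SE 0.43, adjusted p = 6.48e-05), opposite in sign to that of its host. Mir208b passed the count filter only through FVB and Tg-GRK2, where it was higher, so its p-value is no separate support for the difference. Mir208a and Mir499 had 0 reads in every library, where the floor is 3 reads. Libraries from fragmented RNA do not select mature microRNAs, so the reads on these hairpins of 77 to 83 bases are no measure of the sequences shown above. Gm31251, a predicted gene that overlaps Myh7 on the other strand, had 60, 56 and 41 reads in Tg-RKIP and 243, 285 and 261 in FVB (log2 fold change -2.70, SE 0.12, adjusted p = 4.35e-15). Of the 12 tested genes within 50 kb of a member, 6 were higher and 3 lower in Tg-RKIP, over a range of -2.70 to 0.87, a share called that is near the 73.9% of all genes.

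Of the 11 other myosin heavy chain genes, 5 were tested, and 4 of them were higher and 1 lower in Tg-RKIP, with a median log2 fold change of 0.35 beside 0.0085 for all genes. By the same test 36.8% of all genes were higher and 37.1% lower, so that a call is common here. Myh8, the perinatal skeletal form, had 56, 95 and 58 reads in Tg-RKIP and 20, 18 and 15 in FVB (log2 fold change 1.59, SE 0.23). The nonmuscle forms Myh9, Myh10 and Myh14 gave 0.55, 0.30 and 0.35, and Myh11, the smooth muscle form, gave -0.51, or -0.10 on the log2(TPM + 0.1) scale. The differences of the nonmuscle forms were larger in TPM, with means of 46.2, 32.5 and 52.3 TPM in Tg-RKIP against 23.1, 11.7 and 23.8 TPM in FVB. Myh1, Myh2, Myh3, Myh4, Myh13 and Myh15, the forms of fast, embryonic and extraocular muscle among them, did not pass the filter and stayed at or below 0.14 TPM. In Tg-GRK2, Myh9 at 0.20 and Myh14 at 0.18 passed the threshold, as 24.5% of all genes did, and the other 3 did not.

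Markers of other cells and muscles differed between the groups beside the myosins. The counts of marker genes called stand beside 36.8% of all genes higher and 37.1% lower in Tg-RKIP against FVB by TMM-normalized counts. On the log2(TPM + 0.1) scale these shares were 66.3% and 14.6%. In Tg-GRK2 against FVB 12.2% of all genes were called in either direction. The list taken for slow skeletal muscle, whose fibres also use Myh7, summed to 364.1 to 372.2 TPM in Tg-RKIP, 114.2 to 121.6 TPM in Tg-GRK2 and 107.0 to 110.8 TPM in FVB, with 5 of 6 genes higher in Tg-RKIP and 1 lower. Casq1, a skeletal calsequestrin that is not particular to slow fibres, made up 41.7% of that sum in Tg-RKIP and 50.9% in FVB, and the lower gene, Atp2a1, is the calcium pump of fast fibres. Tnnt1, the slow troponin T, stood at 123.9 ± 1.28 TPM in Tg-RKIP, 15.2 ± 1.3 TPM in Tg-GRK2 and 14.8 ± 0.526 TPM in FVB (SD, n = 3 each). The atrial list summed to 22370 to 22970 TPM in Tg-RKIP and 6066 to 6200 TPM in FVB, but 3 of its 8 genes were higher and 5 lower (5 and 2 on the log2(TPM + 0.1) scale), and Nppa, which stood at 18930 to 19470 TPM in Tg-RKIP, made up most of that sum. Fast skeletal muscle markers summed to 337.7 to 361.9 TPM in Tg-RKIP and 219.0 to 236.4 TPM in FVB, of which Myl1 alone made up 97.6% and 98.2%. Of the 9 fast genes 5 were tested, and 3 of them were higher and 2 did not pass. The smooth muscle, cartilage, adipocyte and fibroblast lists were also higher in Tg-RKIP, at 766.3 to 783.7 against 315.9 to 340.4 TPM, 324.4 to 331.4 against 9.88 to 10.6 TPM, 87.8 to 91.2 against 9.41 to 11.4 TPM and 2187 to 2190 against 843.9 to 878.2 TPM, with Myh11 as the only lower gene among those tested. The cartilage genes Col2a1, Acan and Col9a1 held 0 to 3, 4 to 8 and 1 to 2 reads per FVB library. They passed the count filter only through their Tg-RKIP reads, so their calls are no separate support for the difference. In Tg-GRK2 the adipocyte list summed to 25.9 to 27.8 TPM (5 of 6 genes higher than in FVB), the fibroblast list to 934.5 to 945.9 TPM (4 of 5 higher), the smooth muscle list to 291.7 to 303.0 TPM (2 of 5 lower) and the cartilage list to 10.2 to 10.6 TPM (no gene past the threshold). Airway markers summed to 55.3 to 57.7 TPM in Tg-RKIP, 137.7 to 146.3 TPM in Tg-GRK2 and at most 0.0184 TPM in FVB, where 4 to 5 of the 5 genes were at 0. The part of these cells in the myosin differences was not tested.

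Genes often measured together with Myh7 in stressed hearts were higher in 5 of 6 cases in Tg-RKIP, where 36.8% of all genes were, and lower in 1, with a median log2 fold change of 1.32. The lower gene, Xirp1 (-0.44), was at 62.2 ± 4.21 TPM in Tg-RKIP and 58.3 ± 1.26 in FVB (SD, n = 3 each), so that it was not lower in TPM. Acta1, the skeletal actin, gave 2.66, Nppa and Nppb, the natriuretic peptides, gave 1.88 and 1.51, and Ankrd1, a stretch-responsive titin partner, gave 1.13. In Tg-GRK2 the same list had 3 higher, 1 lower and 2 that did not pass, with a median of 0.0364. There 12.2% of all genes were called in either direction.

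The transcription factors and cofactors known to act on the myosin genes gave different counts by scaling in Tg-RKIP. By TMM-normalized counts 15 of 18 were lower and 2 higher (median -0.35), where 37.1% of all genes were lower and 36.8% higher. With counts scaled to library size 6 were lower and 7 higher (median 0.0222), and on the log2(TPM + 0.1) scale 6 and 8 (median 0.0235), with the median of all genes at 0.384 and 0.428. Tead1, which binds the MCAT elements of muscle genes, gave -0.69, Mef2a stood at 0.499-fold and Myocd, a partner of SRF, gave the lowest value of the list, -1.50, while the homeobox factor Nkx2-5 rose by 0.46. Tead4 gave -0.43 (adjusted p = 0.0203), a call lost without Tg-RKIP replicate 3 (adjusted p = 0.0757) or FVB replicate 3 (adjusted p = 0.0649), and Vgll4, a cofactor of the TEAD factors, gave -0.20, and both turned above 0 in TPM. In Tg-GRK2, 8 of the 18 were higher and 3 lower, where 12.2% of all genes were called in either direction.

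Thyroid hormone raises Myh6 and lowers Myh7 in the heart, and of the 12 tested genes of its axis and its known cardiac targets 8 were lower and 3 higher in Tg-RKIP by TMM, and 5 and 5 with library size or TPM. Over all genes 37.1% were lower and 36.8% higher by TMM. These shares were 17.1% and 62.6% with library size, and 14.6% and 66.3% on the log2(TPM + 0.1) scale. Atp2a2 and Pln, the calcium pump of the sarcoplasmic reticulum and its inhibitor, gave -1.33 and -1.34. Dio2, the enzyme that activates the hormone, had 263 to 315 reads in Tg-RKIP against 63 to 72 in FVB (log2 fold change 1.71, SE 0.12). Of the receptors, Thrb fell by 0.55 and Thra did not pass the test, at -0.02 (SE 0.028, adjusted p = 0.611), and the partner receptors gave -0.36 for Rxra and -0.10 for Rxrb (adjusted p = 0.0301, lost without Tg-RKIP replicate 2 at 0.131 or FVB replicate 2 at 0.21), of which Thra, Rxra and Rxrb turned to 0.36, 0.0155 and 0.27 with counts scaled to library size.

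Of the partners of the heavy chains in the thick filament, 6 of 9 were lower and 3 higher in Tg-RKIP by TMM, 4 and 4 with library size and 4 and 5 in TPM. The ventricular light chains Myl2 and Myl3 gave -0.83 and -0.73, and the atrial light chains went apart, Myl7 at -1.28 and Myl4 at 0.83. Of the 8 genes of myosin folding and turnover, 5 were lower and 3 higher by TMM, 3 and 3 with library size and 3 and 5 in TPM. The shares of all genes were 37.1% lower and 36.8% higher by TMM, 17.1% and 62.6% with library size, and 14.6% and 66.3% in TPM. The muscle chaperone Unc45b gave -0.35 and its general relative Unc45a 0.22, Smyd1, which helps myosin assemble, gave -0.60, Hsp90aa1, their partner in folding, gave 0.85, and the ubiquitin ligase Trim55 gave -0.90. Unc45b turned to 0.026 with counts scaled to library size.

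Across the 9 libraries, the genes whose log2 TMM-normalized level (log2 CPM) followed Myh6 most closely, among 11351 genes with a mean of at least 100 counts, were Kif1b, Atp2a2 and 2610507B11Rik, with Pearson's r of 0.99979, 0.9997 and 0.9996. For Myh7 they were Anxa7, Efhd2 and Edn3 (0.99958, 0.99926 and 0.99923), and for Myh7b Vopp1, St6galnac6 and Zc3h4 (0.9958, 0.99181 and 0.98706). The 9 points fall into 3 groups that share depth and scaling within a library, so these values describe the order and spacing of the groups. Edn3, an endothelin, stood at 17.7 TPM in Tg-RKIP against 0.667 TPM in FVB on average, and Atp2a2 at 2694 and 5134 TPM.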

How the data were processed

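Total RNA of whole hearts was made into libraries from fragmented, random hexamer-primed mRNA and sequenced as single reads of 50 bases. The authors deposited read counts per Ensembl transcript, without normalization, and TPM values, which are those counts divided by transcript length and scaled per library. The submitters' processing notes name the build GRCm 39. The aligner, the counting program and the division of shared reads are not given in the sources used here. Depth was 25458108 to 33447654 reads, and intervals and floors cover counting error only.

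Counts and TPM were summed per gene name. Counts of all 9 libraries were tested together in R 4.3.3 with edgeR 4.0.16 (TMM, filterByExpr, glmQLFit, glmQLFTest, a mean per group) on 15504 genes, and again on 34991 transcripts. Transcript usage was tested with diffSpliceDGE. P-values were adjusted by the Benjamini-Hochberg method at a threshold of 0.05. Ratios and single TPM values were compared by exact two-sided permutation over the libraries. The alternatives were DESeq2 1.42.0, its size factors, library size with and without mitochondrial genes, no filter, the replicate number as a block, the groups compared alone, each library left out, the most abundant or the full-length transcripts, a test against a 1.5-fold change, and limma 3.58.1 on TPM in log2 form with 0.1 or 1 added, keeping genes that reached 1 TPM in 3 or more libraries. The scripts were tested on simulated data. Full-length transcripts were chosen as an alternative after seeing the data, as were the alternatives run on single transcripts and listed genes and the list counts under other scalings.

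Windows of 50 bases were matched in all transcripts of GENCODE M21 (GRCm38), and coordinates of genes and transcripts are those deposited. Named were the members with their transcripts of at least 1 TPM in a group, the other myosin heavy chains, the first 4 genes of each list and its highest and lowest change among genes of at least 100 counts, genes within 50 kb, and the 3 genes most like each member. Of the listed and neighbouring genes only part is printed by name, and Casq1, Atp2a1, Tnnt1, Myl1 and Xirp1 were named after their values were seen. The members and lists were chosen with earlier results of these data known.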

Additional observations from a re-analysis of the deposited data

Results flagged for a closer look

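The change from FVB differed between the transgenic groups for all 3 genes, as tested directly in Tg-RKIP against Tg-GRK2 by edgeR's quasi-likelihood test. The difference of the log2 changes was -1.48 for Myh6, 0.98 for Myh7 and -0.31 for Myh7b. For Myh7b its sign depended on the scaling. Groups of 3 libraries are too small for a test of single outlying libraries.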

How the results depend on the processing

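Across 13 other settings, beside those that left out a library, Myh6 stayed lower in Tg-RKIP than in FVB (-1.76 to -0.19) and Myh7 higher (0.59 to 1.27), past the threshold each time. Myh7b reversed in Tg-RKIP against FVB with library size (0.27), library size without mitochondrial genes (0.0743) and limma on log2(TPM + 0.1), with or without a filter, or log2(TPM + 1) (0.35, 0.35 and 0.33), and in Tg-RKIP against Tg-GRK2 with library size (0.049) and the same limma fits (0.23, 0.23 and 0.21). Its call against FVB was lost with DESeq2 (-0.102). In the test against a 1.5-fold change the calls of Myh7b (-0.10, 0.21 in Tg-GRK2 and -0.31 between the transgenic groups) and, in Tg-GRK2, of Myh6 (0.12) and Myh7 (-0.0882) were lost. In Tg-GRK2, Myh7 also lost its call with its most abundant transcript (-0.13) and with limma (-0.0676, -0.0676 and -0.0676), Myh7b with limma (0.13, 0.12 and 0.13) and Myh6 with limma without a filter (0.067). The log2 ratio of Myh7 to Myh6 moved from 1.33 to 2.24 with reads, 2.35 with the most abundant transcripts and 2.45 with full-length transcripts in Tg-RKIP against FVB, from -0.13 to -0.21, -0.27 and -0.21 in Tg-GRK2, and from 1.47 to 2.46, 2.63 and 2.66 between the transgenic groups. The cause was not tested, apart from the make-up of the sums. Leaving out 1 library gave Myh6 -1.36 to -1.35, Myh7 0.86 to 0.90 and Myh7b -0.111 to -0.0916 in Tg-RKIP, and 0.12 to 0.13, -0.11 to -0.07 and 0.19 to 0.24 in Tg-GRK2. The replicate numbers did not pair the libraries (correlations of same-numbered deviations from -0.0564 to 0.0458). With the replicate block, Myh6 gave -1.35, Myh7 0.89 and Myh7b -0.10 in Tg-RKIP, and 11401 in place of 11460 genes passed. The block kept the calls of the 3 genes and took those of Myh6_1, Myh6_6 (adjusted p = 0.112) and Myh7_2 in Tg-RKIP and of Myh7b_3 in Tg-GRK2. Of the other genes named, Thra turned to 0.36 with library size, 0.16 without mitochondrial genes, 0.21 with its most abundant transcript and 0.34, 0.33 and 0.34 with limma, and Rxrb to 0.27 with library size, 0.0706 without mitochondrial genes and 0.34, 0.33 and 0.34 with limma. Vgll4 turned to 0.18 with library size, 0.0395 with its most abundant transcript and 0.20, 0.19 and 0.20 with limma, Rxra to 0.0155 with library size and 0.0617, 0.0593 and 0.0617 with limma, Unc45b to 0.026 and 0.0819, 0.081 and 0.0819, Tead4 to 0.0206, 0.0151 and 0.0206 with limma, and the transcript Myh7b_3 to 0.27 with library size.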
